A study of Drosophila melanogaster with 12 samples.

Results

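The genes of the DNA replication machinery were followed by RNA-seq in Kc cells (Kc167), an embryonic cell line of Drosophila melanogaster. The genes were chosen by name, from a list of 34 symbols whose products mark replication origins, load and activate the helicase, hold the polymerases on DNA, coat single-stranded DNA, join nicks, protect forks and make deoxynucleotides. Of these symbols, 32 name a row among the 23882 features of the deposited count table, and these 32 genes are the ones counted here. All of them passed the filter on low counts, as did 10368 features in all. The smallest count of a gene in any library lay between 264 for Psf2 and 15691 for RpA-70, with a median of 2243.5 over the genes. The symbols lat and CDC45L name no row in the table. RefSeq gives them as synonyms of Orc3 and Cdc45, which have rows under those names and were measured beside the list.

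Cells were transfected with double-stranded RNA (dsRNA), by which matching mRNA is degraded through RNA interference, and RNA was extracted after 5 days. The groups were cells treated with dsRNA against dGcn5, a histone acetyltransferase listed in the table as Gcn5, cells labelled with dsRNA against Elp3, the catalytic subunit of Elongator, cells labelled with dsRNA against nej, the Drosophila CBP, and control cells given dsRNA against the pigmentation gene yellow. Each of the 4 groups had 3 libraries of stranded, polyadenylated RNA, and every group shared the same line, medium and transfection. The labels do not say whether replicates came from separate cultures, so that p-values measure the spread between these libraries, which may be technical.

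Replication starts where the origin recognition complex (ORC) binds DNA and, with Cdc6 and the Cdt1 protein that Drosophila calls double parked (dup), loads the ring of MCM proteins in G1 phase. Geminin binds Cdt1 outside G1 and keeps origins from being loaded again. In S phase, Cdc45 and the GINS complex join the MCM ring to make the active helicase, while the clamp PCNA, its loader RFC, the single-strand binding protein RPA, the ligase and ribonucleotide reductase carry the fork forward. In flies, many of these genes are transcribed under the control of E2F and DREF and are abundant in dividing cells such as this line.

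Libraries held 19102102 to 23198850 counts. Values are given as CPM (counts scaled to a common library size) after TMM normalization over the 12 libraries, for replicates 1, 2 and 3 in that order, and as RPKM (CPM per kilobase of exon) where genes are set beside each other. The target genes checked the labels first. Gcn5 measured 28.7, 43.2 and 48.5 CPM in the dGcn5-depleted libraries, against 150.1, 135 and 128 CPM in the control libraries, without overlap. In the libraries labelled Elp3, Elp3 measured 4126, 1899.8 and 3679 CPM, against 53.0, 45.9 and 58.8 CPM in the control libraries. Likewise, nej measured 309, 3245 and 698 CPM in the libraries labelled nej, against 193, 205 and 46.8 CPM in the control libraries. Both genes thus went against the depletion that the labels name, and for that reason these groups are named only by label here. The target of the control dsRNA, listed as y, measured 10.99, 14.44 and 44.02 CPM in the control libraries. In the other groups y ranged from 8.47 CPM in nej-labelled replicate 2 to 43.24 CPM in Elp3-labelled replicate 3. Control replicate 3 was thus the highest of the 12 libraries for y, and its level did not show the depletion that the control label names. All 12 hemocyte markers, which Kc cells are known to express, averaged over 1 CPM in every group, while 5 gut markers summed to 2.42 CPM at most in any library. Markers of other types reached at most 52.3 CPM in sum for neurons, 195 CPM for muscle, 101 CPM for germ line and 10.1 CPM for fat body. The hemocyte markers summed to 1669 to 7254 CPM in dGcn5-depleted libraries, 1498 to 5726 CPM in those labelled Elp3, 4831 to 6105 CPM in those labelled nej and 3962 to 7779 CPM in control libraries, and their part in the results was not tested.

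Within groups, libraries differed beyond counting noise, and part of the difference followed gene length. A chi-square comparison of 2 replicates over genes, scaled to be near 1 where only counting noise separates them, gave values from 27.5 for control replicates 1 and 2 to 379 for control replicates 2 and 3. Per doubling of exon length, the log2 level of a feature relative to its 12-library mean changed by -0.33 in control replicate 3 and by -0.34 in replicate 1 labelled Elp3. In the other 10 libraries these slopes lay between -0.21 and 0.23. Among them, replicates 1 and 2 stood at -0.13 and -0.21 in the dGcn5-depleted and at 0.13 and 0.15 in the control group. Control replicate 3 and Elp3-labelled replicate 1 therefore held relatively more of short genes, and to a lesser degree so did dGcn5-depleted replicates 1 and 2.

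The replication genes were well expressed in all groups. Their mean level over the 12 libraries ran from 8.69 RPKM for Cdc6 to 812 RPKM for RnrS, with a median of 63.5 RPKM, against a median of 13.1 RPKM over all 10368 features. The median gene of the list stood at percentile 86.2 of all features by level. The plot of levels by role shows that the genes of a role differed most in level among the loading factors, the genes that activate the ring and the clamp and its loader.

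**Figure D1:**
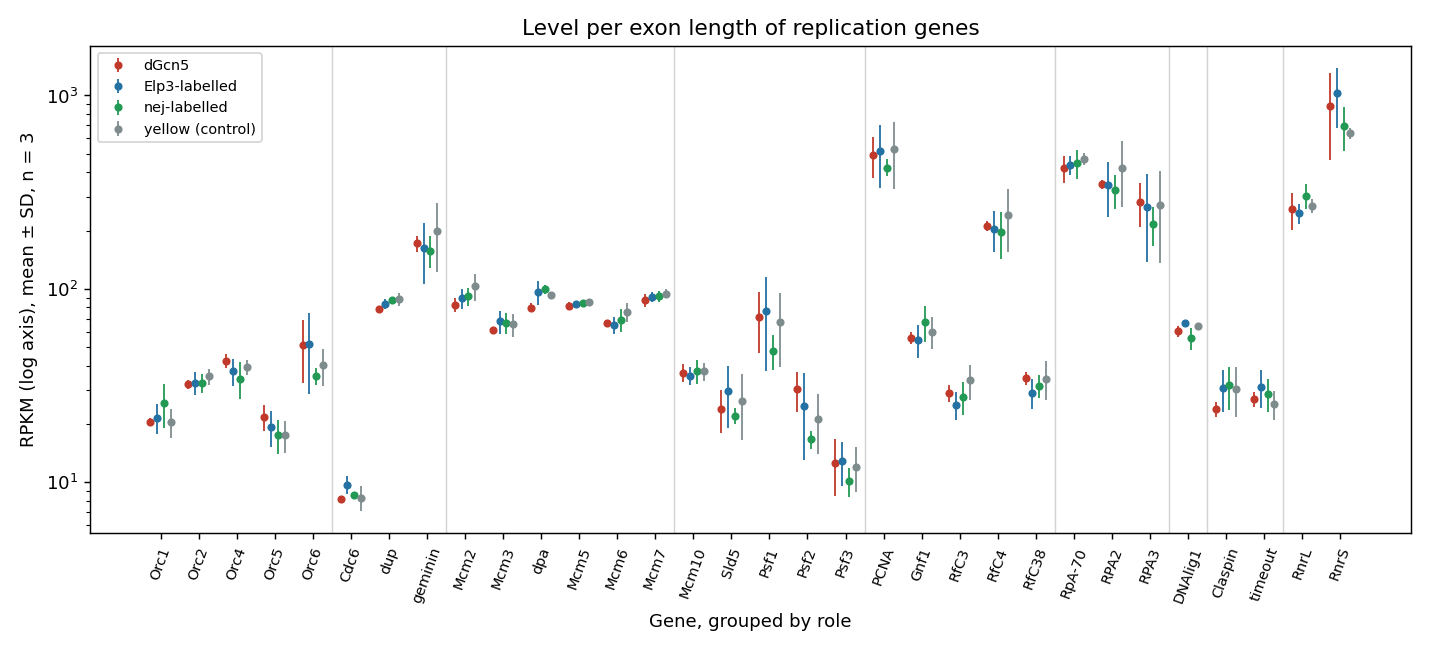
Level of each replication gene in RPKM (log axis), grouped by role along the horizontal axis. Points are the means and bars the SD of 3 libraries for dGcn5, Elp3-labelled, nej-labelled and yellow (control) cells. Levels of the 12-library mean run from 8.69 RPKM for Cdc6 to 812 RPKM for RnrS, and the 4 groups of a gene lie close together beside this range.

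The subunits of ORC, which mark the origins, stood between 19.0 RPKM for Orc5 and 44.5 RPKM for Orc6. Orc1, an ATPase subunit, measured 61.0, 65.5 and 66.9 CPM in dGcn5-depleted libraries, 53.7, 75.0 and 74.8 CPM in those labelled Elp3, 71.9, 104 and 65.2 CPM in those labelled nej and 69.6, 71.0 and 51.5 CPM in control libraries. Replicate 2 labelled nej was thus the highest and control replicate 3 the lowest library for Orc1. Orc6, which is needed for loading of the MCM ring, measured 54.5, 64.2 and 29.7 CPM in dGcn5-depleted libraries, 74.9, 44.4 and 31.2 CPM in those labelled Elp3, 36.5, 30.2 and 36.4 CPM in those labelled nej and 33.1, 35.4 and 48.5 CPM in control libraries. The range of the dGcn5-depleted libraries, and that of the Elp3-labelled libraries, enclosed all control values of Orc6. Orc3 was listed at 0 counts in all 12 libraries. All 3315 bp of its exons are shared on the same strand with CG34315, which was also at 0 counts in all libraries, so that its level could not be measured from these counts.

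Among the loading factors, the level per length ran from 8.69 RPKM for Cdc6 through 84.2 RPKM for dup to 173 RPKM for geminin. Cdc6, the loading ATPase and the gene of the list with the lowest level, measured 21.0, 20.3 and 19.6 CPM in dGcn5-depleted libraries, 21.2, 25.9 and 25.2 CPM in those labelled Elp3, 21.0, 22.3 and 20.6 CPM in those labelled nej and 22.8, 21.7 and 17.2 CPM in control libraries, and all groups overlapped the control. The factor dup measured 237, 255 and 245 CPM in dGcn5-depleted libraries, 253, 251 and 279.5 CPM in those labelled Elp3, 283, 259 and 277 CPM in those labelled nej and 264, 266 and 300.3 CPM in control libraries. The dGcn5-depleted libraries all lay below the control libraries for dup, while the other groups overlapped the control. Geminin, the inhibitor of dup, measured 173, 203 and 170.4 CPM in dGcn5-depleted libraries, 241, 129 and 147 CPM in those labelled Elp3, 133, 173 and 194 CPM in those labelled nej and 161, 166 and 307 CPM in control libraries. Its highest value was in control replicate 3, and the groups overlapped. Within a library, the level of the inhibitor over that of its target, both per length, ran from 1.39 in nej-labelled replicate 1 to 3.03 in control replicate 3.

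The 6 subunits of the MCM ring, the motor of the helicase, were the most even in level among the roles with 3 or more genes. Their 12-library means lay between 65.2 RPKM for Mcm3 and 91.8 RPKM for dpa, the Drosophila Mcm4, which is a ratio of 1.41. In single libraries the ratio of the highest to the lowest subunit was between 1.34 in dGcn5-depleted replicate 1 and 1.82 in control replicate 3. The subunit dpa, at the highest mean CPM of the ring, measured 235, 241 and 260.2 CPM in dGcn5-depleted libraries, 255, 288 and 339 CPM in those labelled Elp3, 305, 287 and 321 CPM in those labelled nej and 296, 276 and 283 CPM in control libraries. All dGcn5-depleted libraries lay below all control libraries for dpa. Mcm2 measured 218, 257 and 239.9 CPM in dGcn5-depleted libraries, 224, 274 and 279 CPM in those labelled Elp3, 249.6, 298 and 249 CPM in those labelled nej and 301, 344 and 250.4 CPM in control libraries. Here control replicate 3 lay within the range of the dGcn5-depleted libraries and the other control replicates above it. Mcm5 measured 193, 198 and 209.7 CPM in dGcn5-depleted libraries, 204, 199.8 and 212 CPM in those labelled Elp3, 215, 204 and 202 CPM in those labelled nej and 209, 218 and 203 CPM in control libraries.

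The stability of Mcm5, on chromosome arm 3R of BDGP6.32 from 10788524 to 10791150, stood out. Its coefficient of variation over the 12 libraries was 3.54%, the smallest of the 10368 features with TMM scaling, at rank 3 with DESeq2 size factors and rank 24 with scaling by total counts. Mcm7 lay at 6.27% (rank 24) and dup at 6.81% (rank 35) with TMM scaling, and at ranks 71 and 84 with scaling by total counts. With the trend on exon length removed, the SD on the log2 scale fell from 0.051 to 0.047 for Mcm5. Mcm5 was then not the smallest, since the smallest SD over all features was 0.046. The SD rose from 0.092 to 0.104 for Mcm7 and from 0.097 to 0.152 for dup. The exons of Mcm7 share 2003 bp with the antisense RNA asRNA:CR45871, which had at most 2 counts in a library. Over the whole list the median coefficient of variation was 17.6%, against 34.1% over all features, and 28 of the 32 genes lay under 34.1%. The genes also stood higher in level than most features, and the part of level in this spread was not tested. The highest value was 39.4%, for Psf1.

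**Figure D2:**
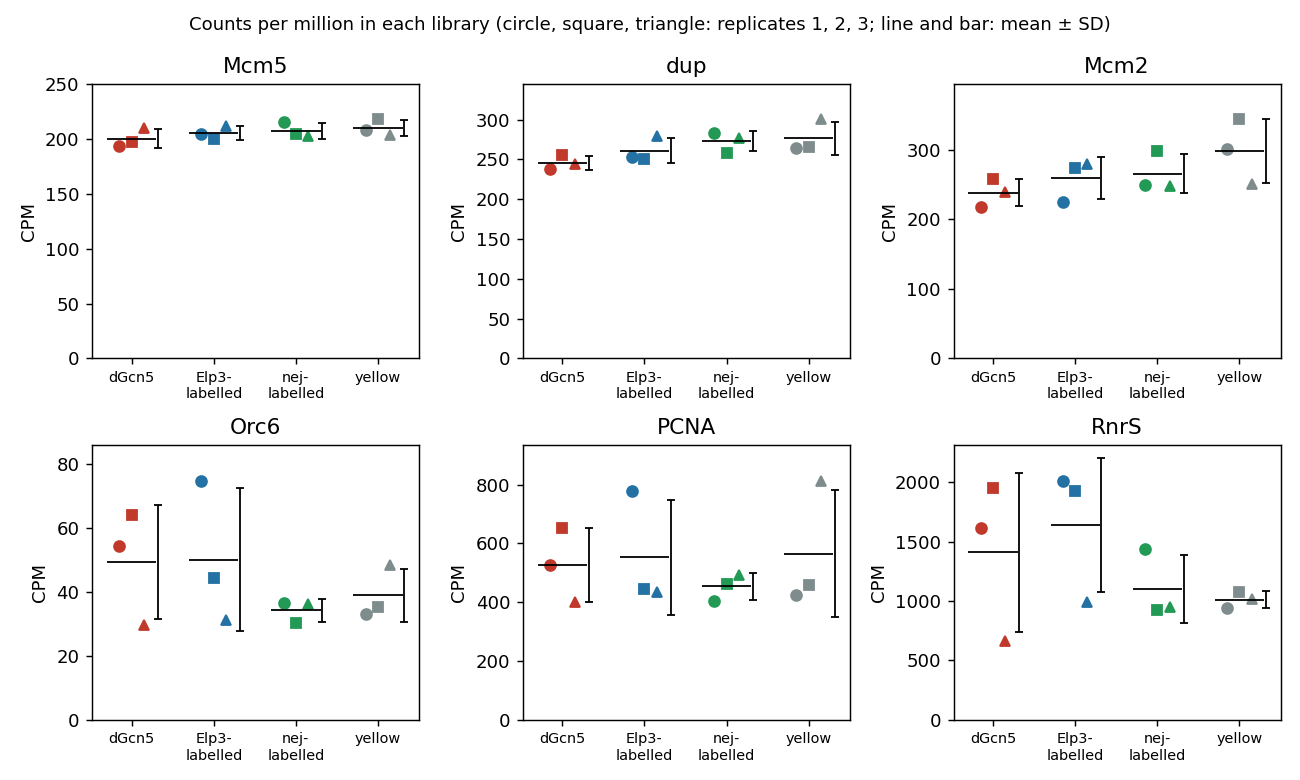
CPM of Mcm5, dup, Mcm2, Orc6, PCNA and RnrS in each library of the 4 groups, with circles, squares and triangles for replicates 1, 2 and 3, a line for the mean and a bar for the SD (n = 3). Mcm5 lies between 193 and 218 CPM in all 12 libraries, while RnrS ranges from 665 to 2012 CPM.

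The genes that activate the ring include Mcm10 and the GINS subunits Sld5, Psf1, Psf2 and Psf3. Their levels ran from 11.9 RPKM for Psf3 to 65.6 RPKM for Psf1, although the GINS proteins assemble in equal numbers. The exons of Psf3 share 831 bp with CG17841 on the other strand, so its count is uncertain if strand was not used in counting. Psf2 measured 26.0, 32.3 and 20.1 CPM in dGcn5-depleted libraries, 32.8, 18.4 and 13.2 CPM in those labelled Elp3, 15.8, 12.8 and 14.7 CPM in those labelled nej and 13.1, 16.7 and 25.5 CPM in control libraries. Psf1 measured 52.7, 64.7 and 30.8 CPM in dGcn5-depleted libraries, 83.6, 39.2 and 35.6 CPM in those labelled Elp3, 32.8, 26.6 and 39.9 CPM in those labelled nej and 33.8, 36.8 and 68.6 CPM in control libraries. Both genes were highest in Elp3-labelled replicate 1, and all groups overlapped the control. Mcm10, which binds the MCM ring at origins, was steadier, at 95.8, 99.9 and 116 CPM in dGcn5-depleted libraries, 87.9, 103 and 109 CPM in those labelled Elp3, 121, 104 and 92.0 CPM in those labelled nej and 112, 111 and 92.5 CPM in control libraries. Cdc45, measured beside the list, had 82.8, 69.1 and 80.4 CPM in dGcn5-depleted libraries, 70.9, 68.2 and 81.2 CPM in those labelled Elp3, 78.2, 63.5 and 77.3 CPM in those labelled nej and 73.5, 69.2 and 84.2 CPM in control libraries. The range of Cdc45 in each group overlapped that of the control.

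The clamp PCNA, which tethers polymerases to DNA, stood at 490.3 RPKM, and the subunits of its loader RFC between 28.7 RPKM for RfC3 and 213 RPKM for RfC4. PCNA measured 528, 652 and 402 CPM in dGcn5-depleted libraries, 778, 446 and 433 CPM in those labelled Elp3, 403, 463 and 494 CPM in those labelled nej and 424, 459.9 and 813 CPM in control libraries. The highest values were again in control replicate 3 and Elp3-labelled replicate 1. RfC3 measured 29.0, 35.6 and 33.5 CPM in dGcn5-depleted libraries, 32.1, 23.1 and 29.9 CPM in those labelled Elp3, 24.5, 35.8 and 33.2 CPM in those labelled nej and 32.8, 34.2 and 47.0 CPM in control libraries. All Elp3-labelled libraries lay below all control libraries for RfC3, with a gap of under 1 CPM between the nearest values. Gnf1, the large subunit of RFC, measured 169, 183 and 194 CPM in dGcn5-depleted libraries, 139, 203 and 191 CPM in those labelled Elp3, 214, 270.3 and 178 CPM in those labelled nej and 210.5, 223 and 154 CPM in control libraries. The groups overlapped for Gnf1.

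RPA, which coats single-stranded DNA at the fork, was among the more abundant products. Its subunits stood at 443 RPKM for RpA-70, 359.9 RPKM for RPA2 and 257 RPKM for RPA3. RpA-70 measured 770.1, 870.4 and 1042 CPM in dGcn5-depleted libraries, 839, 914 and 1048 CPM in those labelled Elp3, 815, 908 and 1138 CPM in those labelled nej and 980.1, 943 and 1088 CPM in control libraries. RPA2 measured 319.8, 355 and 329.8 CPM in dGcn5-depleted libraries, 445, 234 and 317 CPM in those labelled Elp3, 271, 281 and 384 CPM in those labelled nej and 342, 299 and 582 CPM in control libraries. Control replicate 3 was the highest of the 12 libraries for RPA2, and the groups overlapped. The level of RPA3 over that of RpA-70 in the same library ran from 0.348 in Elp3-labelled replicate 3 to 1.04 in Elp3-labelled replicate 1.

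DNAlig1, the ligase that joins Okazaki fragments, stood at 61.7 RPKM. It measured 145, 153 and 135 CPM in dGcn5-depleted libraries, 164, 157 and 153 CPM in those labelled Elp3, 139.6, 113 and 145 CPM in those labelled nej and 150.3, 154 and 157 CPM in control libraries. The libraries labelled nej all lay below the control libraries. The fork protection genes Claspin and timeout were alike in level per length, at 29.0 and 27.9 RPKM. Claspin, which links stalled forks to checkpoint kinases in vertebrates, measured 110.2, 105 and 125 CPM in dGcn5-depleted libraries, 108, 177 and 153 CPM in those labelled Elp3, 191, 146 and 115.5 CPM in those labelled nej and 170.3, 168 and 96.7 CPM in control libraries. The gene timeout, a paralog of the clock gene timeless, measured 104, 124 and 121 CPM in dGcn5-depleted libraries, 116, 169.5 and 120.2 CPM in those labelled Elp3, 143, 131 and 97.3 CPM in those labelled nej and 113, 126 and 89.7 CPM in control libraries. Claspin and timeout have the longest exons of the list, and control replicate 3 was their lowest library.

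Ribonucleotide reductase makes the deoxynucleotides for replication from a large subunit, RnrL, and a small subunit, RnrS. RnrS, on arm 2R from 11983145 to 11985393, measured 1613, 1955 and 665 CPM in dGcn5-depleted libraries, 2012, 1925 and 995 CPM in those labelled Elp3, 1434, 927 and 952 CPM in those labelled nej and 942, 1076 and 1019.7 CPM in control libraries. Replicates 1 and 2 of the dGcn5-depleted and Elp3-labelled groups and replicate 1 labelled nej lay above all control libraries, while dGcn5-depleted replicate 3 and nej-labelled replicate 2 lay below them. RnrL measured 564, 599.7 and 831 CPM in dGcn5-depleted libraries, 593, 586 and 717 CPM in those labelled Elp3, 656, 877 and 809 CPM in those labelled nej and 689, 635 and 753 CPM in control libraries, and the groups overlapped. The level of RnrS over that of RnrL, both per length, was 4.63, 5.27 and 1.29 in dGcn5-depleted libraries, 5.49, 5.32 and 2.24 in those labelled Elp3, 3.53, 1.71 and 1.90 in those labelled nej and 2.21, 2.74 and 2.19 in control libraries. The SD of RnrS over the 12 libraries was 0.52 on the log2 scale, and 0.50 with the length trend removed from each library.

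**Figure D3:**
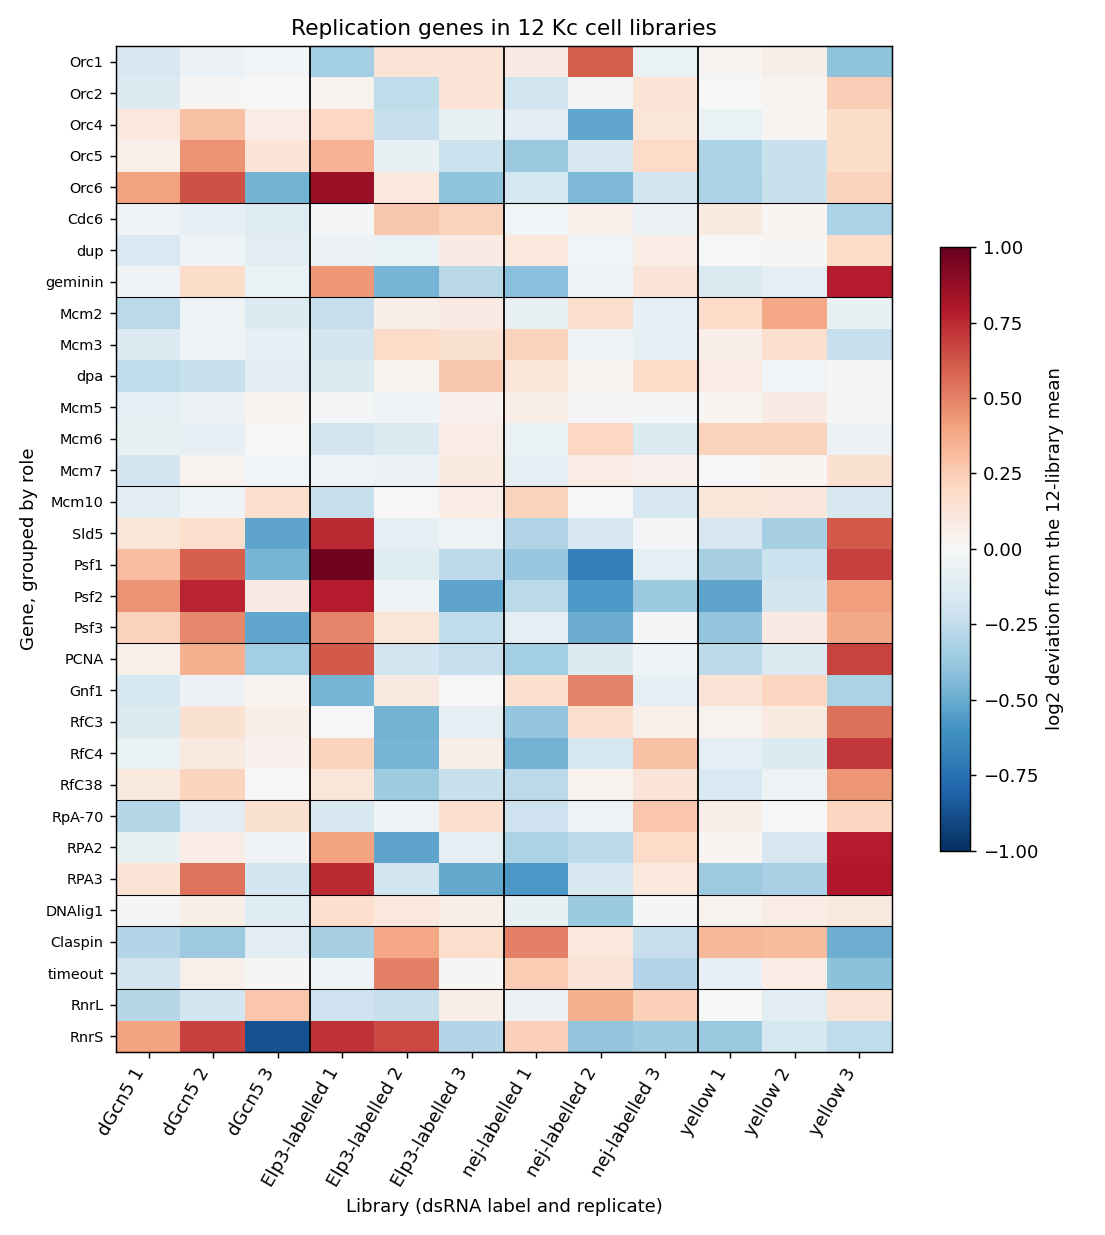
Deviation of each replication gene from its mean over the 12 libraries, on the log2 scale (red above, blue below), with genes grouped by role down the page and libraries grouped by dsRNA label along the horizontal axis. The rows of the MCM ring stay pale, while short genes such as Psf1, RPA3 and PCNA are red in Elp3-labelled replicate 1 and control replicate 3.

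The depletion of dGcn5 was compared with the control to ask whether the replication genes changed, since the study examined cell-cycle genes in these cells. None of the 32 genes passed the test. With edgeR's quasi-likelihood test on 3 against 3 libraries and Benjamini-Hochberg adjustment over 9820 features, 0 of the 32 genes had an adjusted p under 0.05, as had 0% of all features, and the smallest adjusted p of a replication gene was 0.984. The same test did not call the depleted gene Gcn5 itself, at a log2 fold change of -1.78 (adjusted p 0.421). The lack of calls alone therefore does not show that the replication genes were unchanged. At an unadjusted p under 0.05 there were also 0 of the 32, against 3.67% of all features, and DESeq2 called 0 of the 32, beside 47 of the 10686 features for which it gave an adjusted p. The log2 fold changes of dGcn5-depleted over control cells ran from -0.35 to 0.50, with a median of -0.095, against a median of -0.026 over all features. There were 21 genes below 0, which is 65.6% against 52.9% of all features, and 11 above.

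By role, all 6 MCM subunits had a log2 fold change below 0 in dGcn5-depleted cells, from -0.32 for Mcm2 to -0.070 for Mcm5, and the intervals of all 6 held 0. The loading factors Cdc6, dup and geminin lay between -0.22 and -0.021, and 4 of the 5 ORC subunits lay above 0, up to 0.34 for Orc6. Without replicate 3 in either group geminin stood at 0.21 and Orc1 at -0.14, so that 3 of the 5 ORC subunits lay above 0. The genes furthest below and above 0 had wide intervals. Claspin had a log2 fold change of -0.35 (95% confidence interval -0.96 to 0.26) and Mcm2 one of -0.32 (-0.83 to 0.18). Psf2 stood at 0.50 (-0.27 to 1.27), at 0.85 without control replicate 3 and at 0.30 without control replicate 1. RnrS stood at 0.48 (-0.44 to 1.41), at 0.83 without dGcn5-depleted replicate 3 and at 0.22 without dGcn5-depleted replicate 2. Orc6 stood at 0.61 without dGcn5-depleted replicate 3, at 0.58 without control replicate 3, at 0.23 without control replicate 1 and at 0.16 without dGcn5-depleted replicate 2. Claspin stood at -0.54 without control replicate 3 and at -0.22 without control replicate 2, and Mcm2 at -0.20 without control replicate 2. RPA2 stood at -0.29 (-0.98 to 0.41), and without control replicate 3 at 0.11 with an adjusted p of 0.72 by edgeR. For dup and dpa the 2 groups did not overlap, and in both cases dGcn5-depleted libraries were lower. Of all features, 8.15% did not overlap, 4.01% with dGcn5-depleted libraries higher and 4.13% with them lower, beside 6.25% of the replication genes. Their log2 fold changes were -0.17 and -0.22, and an exact two-sided permutation test gave 0.1 for each, the smallest p that 3 against 3 libraries allow.

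The precision of this comparison set what could be seen. The 95% confidence interval of a replication gene reached a median of 0.53 to either side on the log2 scale, against 0.80 over all features. For 29 of the 32 genes the interval lay within 1 of 0, so that a doubling or a halving was outside it, which held for 44.6% of all features. The exceptions were Orc6, Psf2 and RnrS. Within 0.58 of 0, a change of about 1.5 times, lay the intervals of 9 genes, or 28.1%, against 6.24% of all features. The plot of fold changes shows these intervals by gene.

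**Figure D4:**
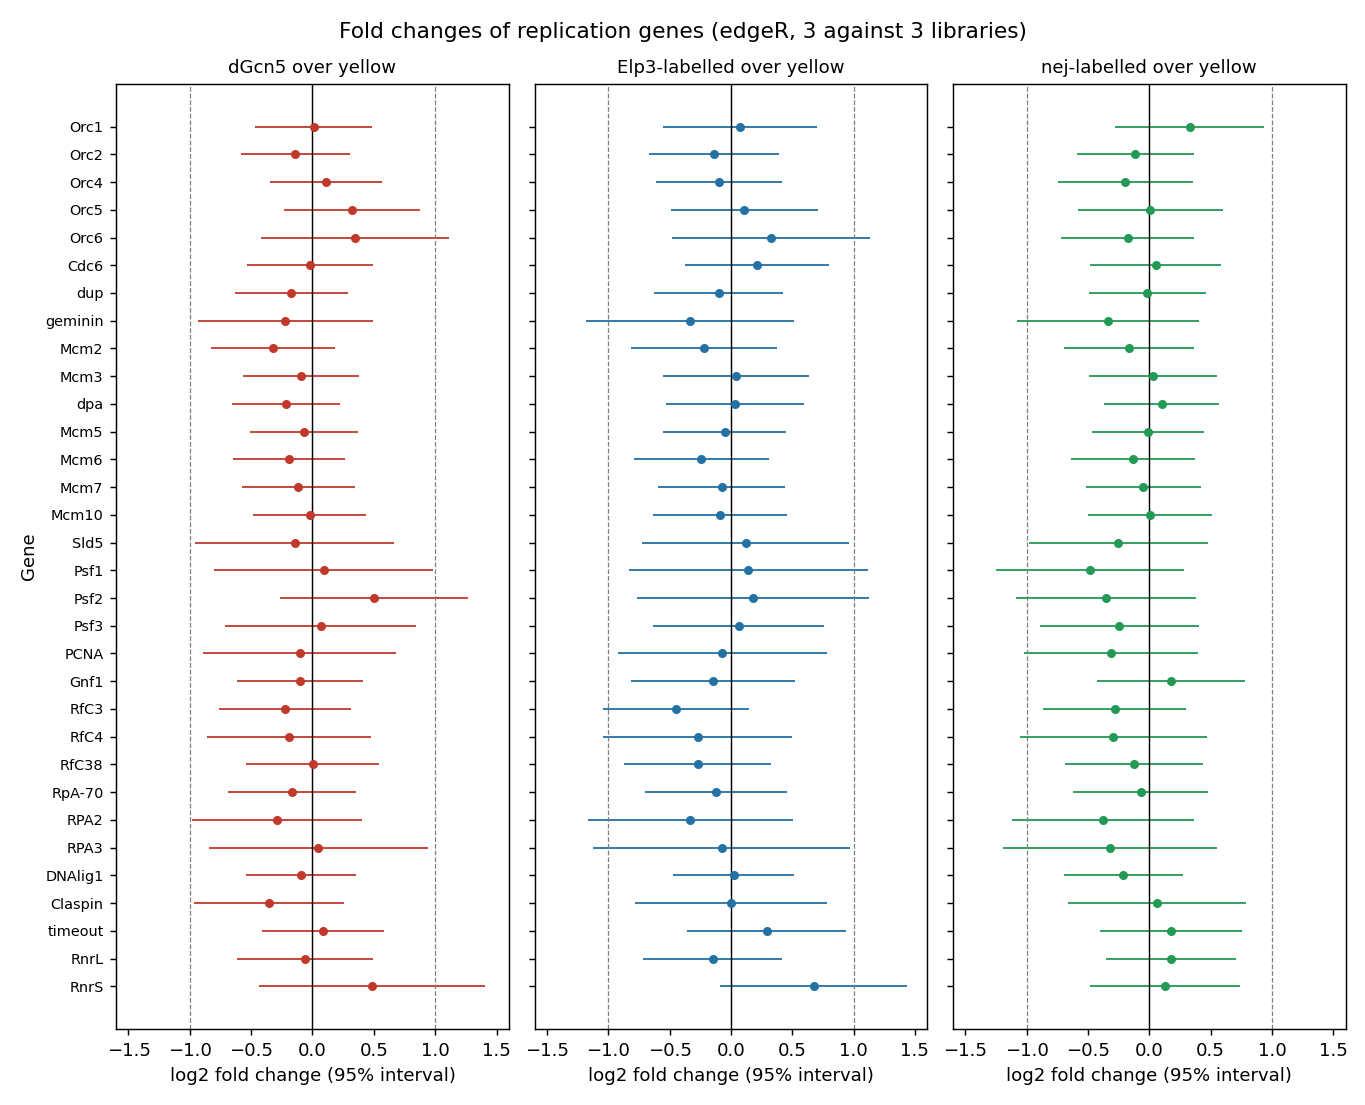
Log2 fold change of each replication gene over yellow (control), with its 95% confidence interval from edgeR (3 against 3 libraries), for dGcn5, Elp3-labelled and nej-labelled cells from left to right. Every interval crosses 0, and dashed lines mark a log2 fold change of 1 in either direction.

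The result for dGcn5 depended on the libraries of replicate 3. With replicate 3 left out of the dGcn5-depleted and the control group together, which leaves 2 against 2 libraries, edgeR called 9 of the 32 genes, beside 4275 of the 9841 features tested. The share called was thus smaller among the replication genes than among all features. Replicates 1 and 2 were the most alike of their group, at scaled chi-square values of 35.7 for dGcn5-depleted and 27.5 for control libraries. The log2 fold change of 7 of the 32 genes changed sign, including PCNA, which stood at -0.10 with all libraries and was called higher without replicate 3, and Sld5 and RfC4, which were not called. Those called were higher for Orc5 (0.55), Orc6 (0.81), Psf1 (0.75), Psf2 (0.98), PCNA (0.43), RPA3 (0.72) and RnrS (0.84) and lower for Mcm2 (-0.42) and Claspin (-0.64), as log2 fold changes of dGcn5-depleted over control cells, with adjusted p between 0.00238 and 0.0366. The 7 higher genes have exons of up to 1687 bp, and Mcm2 and Claspin have exons of 2898 and 4779 bp. The length slopes of replicates 1 and 2 were -0.13 and -0.21 in dGcn5-depleted and 0.13 and 0.15 in control libraries. In this fit the slope and the group thus went together. With the length trend also removed from each library, an alternative added after the data were seen, 2 of the genes remained called, RnrS at 0.69 (adjusted p 0.01) and Orc6 at 0.43 (adjusted p 0.0316), beside 2884 features. With a single replicate 3 left out, either dGcn5-depleted or control, edgeR called 0 of the 32.

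Libraries labelled Elp3 were compared with the control in the same way. Again no replication gene passed the test, and the ribonucleotide reductase subunit RnrS had the largest difference. With edgeR's quasi-likelihood test, 0 of the 32 genes were called at an adjusted p under 0.05, against 0.0101% of 9915 features, a share that is the gene Elp3 alone. At an unadjusted p under 0.05 there were 0 of the 32, against 3.86% of all features. DESeq2 called 0 of the 32 as well, beside 24 of 11157 features with an adjusted p. Log2 fold changes ran from -0.45 for RfC3 to 0.67 for RnrS, with a median of -0.071, against -0.015 over all features. The 18 genes below 0 were 56.2% of the list, against 51.9% of all features.

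The loader and clamp genes, PCNA and RFC, were all 5 below 0 in libraries labelled Elp3, and so were the 3 RPA subunits, with 0 inside each interval. This pattern did not hold without replicate 3 in either group, where PCNA stood at 0.42, RPA3 at 0.64 and RPA2 at 0.035. RfC3 had a log2 fold change of -0.45 (95% confidence interval -1.04 to 0.15), and its groups did not overlap. Of all features, 8.62% did not overlap, 4.08% with the Elp3-labelled libraries higher and 4.54% with them lower. An exact two-sided permutation test for RfC3 gave 0.1, the smallest p possible. RfC3 stood at -0.26 without control replicate 3, and also without Elp3-labelled replicate 2. RnrS had one of 0.67 (-0.085 to 1.43), the smallest unadjusted p of the list at 0.0741 by edgeR, with an adjusted p of 1. It was higher than all control libraries in 2 of 3 libraries. Orc6 stood at 0.33 (-0.48 to 1.13), and at -0.025 (adjusted p 0.993 by edgeR) without Elp3-labelled replicate 1. Geminin and RPA2 stood at -0.33 each, and without control replicate 3 geminin stood at 0.044 and RPA2 at 0.024. The interval lay within 1 of 0 for 23 of the 32 genes, against 33.2% of all features, and within 0.58 of 0 for 2 genes, against 2.2% of all features. MCM subunits lay between -0.24 for Mcm6 and 0.041 for Mcm3. The fork protection gene timeout stood at 0.29 (-0.36 to 0.94), at 0.17 without control replicate 3 and at 0.12 without Elp3-labelled replicate 2.

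In the libraries labelled nej, most replication genes had a log2 fold change below 0 against the control, and none passed the test. By edgeR's quasi-likelihood test, 0 of the 32 genes and 0% of 9816 features were called at an adjusted p under 0.05, and the smallest adjusted p of a replication gene was 0.968. The gene nej, at a log2 fold change of 3.25 in these libraries, was not called by this test either (adjusted p 0.968). With the replicate number as a block, although the libraries could not be shown to be paired, edgeR called 2 features and 0 of the 32 genes. At an unadjusted p under 0.05 there were 0 of the 32, against 3.65% of all features. DESeq2 also called 0 of the 32, beside 38 of 11356 features with an adjusted p. Log2 fold changes ran from -0.48 for Psf1 to 0.33 for Orc1, with a median of -0.12, against 0.0065 over all features, and 21 genes lay below 0, or 65.6% against 49.3%. Without control replicate 3 the median of the genes was -0.0085.

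The GINS subunits were all below 0 in libraries labelled nej. Psf1 stood at -0.48 (95% confidence interval -1.25 to 0.29) and Psf2 at -0.35 (-1.08 to 0.38), and the RPA subunits ran from -0.38 for RPA2 to -0.070 for RpA-70. These values rested on control replicate 3, without which Psf1 stood at -0.092, Psf2 at -0.054 and RPA2 at -0.038. The MCM subunits, from -0.17 for Mcm2 to 0.10 for dpa, lay around 0. Both subunits of ribonucleotide reductase lay above 0, with RnrL at 0.18 (-0.35 to 0.71) and RnrS at 0.13 (-0.48 to 0.74). RnrL stood at 0.083 without nej-labelled replicate 2. Orc1 stood at 0.33 (-0.28 to 0.94) and Gnf1 at 0.18 (-0.43 to 0.78). Without nej-labelled replicate 2 these were 0.099 for Orc1 and 0.0051 for Gnf1, and without control replicate 3 they were 0.19 for Orc1 and 0.025 for Gnf1. DNAlig1, whose groups did not overlap, had a log2 fold change of -0.21 (-0.70 to 0.28), and nej-labelled libraries were lower. Of all features, 9.83% did not overlap, 4.58% with nej-labelled libraries higher and 5.25% with them lower. An exact two-sided permutation test for DNAlig1 gave 0.1, the smallest p possible. For 25 of the 32 genes the interval lay within 1 of 0, against 39.9% of all features, and for 6 genes within 0.58 of 0, against 5.29%.

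Over all 4 groups, an F test of edgeR for any difference among them called 0 of the 32 genes, against 0.00965% of 10368 features, which is Elp3 alone. Unadjusted p-values of this edgeR test ran from 0.161 for Psf2 to 0.976, so that 0 of the 32 were under 0.05, against 3.6% of all features. The 3 comparisons share the control libraries, so a deviation of control replicate 3 entered each of them. Without the replicate 3 of all groups, this edgeR test again called 0 of the 32.

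In some libraries, short and long replication genes deviated in opposite directions from the other libraries of the group. The list was split at its median into 16 genes with exons of up to 2135 bp and 16 with exons of 2380 bp or more. In control replicate 3, all 16 short genes lay above the mean of the other 2 control libraries, by a median of 0.66 on the log2 scale, and 5 of the 16 long genes did, with a median of -0.28. In Elp3-labelled replicate 1 the same held for 15 of 16 short genes (median 0.62) and 2 of 16 long genes (median -0.27). The short genes were higher in 15 of 16 cases also in nej-labelled replicate 3 (median 0.30) and in dGcn5-depleted replicate 2 (median 0.30). Of the 16 long genes, 6 were higher in nej-labelled replicate 3 (median -0.10) and 10 in dGcn5-depleted replicate 2 (median 0.026). In dGcn5-depleted replicate 1 the medians were alike, at -0.064 for short and -0.083 for long genes. In nej-labelled replicate 2, 6 short and 8 long genes were higher. With each library's length trend removed, the median SD of a gene over the 12 libraries fell to 0.20, against 0.35 before, for the short genes, and to 0.15, against 0.16, for the long genes. It was smaller for 28 of the 32 genes after this step. The slopes were fitted to the values of these same libraries, so that a smaller total spread over all features follows from the fit. Differences within a library between short subunits such as Psf1, RPA3 and PCNA and long ones such as Claspin may hold this trend, which was not tested. Over all features the median SD also fell, to 0.38 against 0.49 before, so that the trend was not particular to these genes. Its source was not tested.

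**Figure D5:**
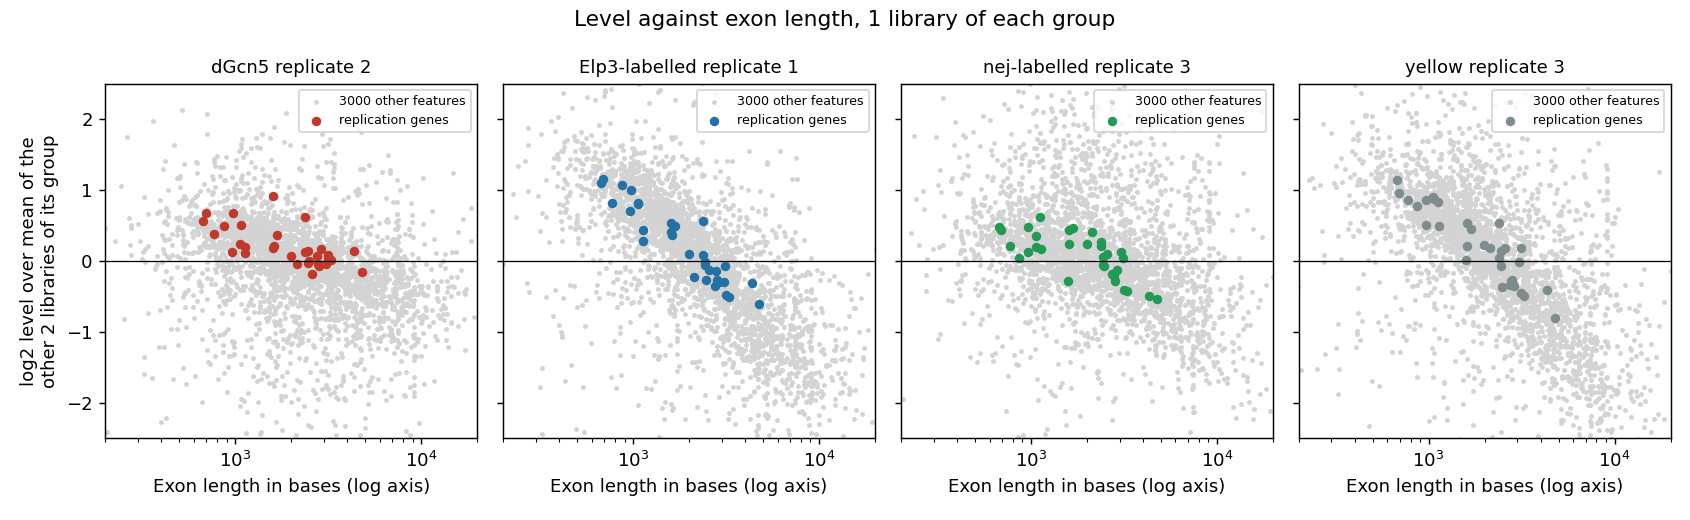
Log2 level in 1 library over the mean of the other 2 libraries of its group (vertical axis) against exon length in bases (log axis), for dGcn5-depleted replicate 2, Elp3-labelled replicate 1, nej-labelled replicate 3 and yellow replicate 3. Each is the library with the lowest length slope of its group, so that the plotted libraries were picked for this trend. Coloured points are the 32 replication genes. Grey points, labelled as other features, are 3000 drawn at random from all features that passed the filter, which can include replication genes. Nearly all short replication genes lie above 0 and most long ones below it in Elp3-labelled replicate 1 and yellow replicate 3.

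Other genes of replication were counted from a wider list of 39 symbols for polymerases, primase, kinases, chromatin assembly factors, topoisomerases and nucleotide enzymes, of which 37 matched and 36 were tested. By edgeR, 0 of the 36 were called in any of the comparisons. The median log2 fold change of these genes was -0.089 in dGcn5-depleted, -0.020 in Elp3-labelled and -0.053 in nej-labelled over control libraries. The smallest unadjusted p belonged to Top2, the topoisomerase that untangles replicated DNA, in dGcn5-depleted cells (0.254 by edgeR, log2 fold change -0.50), to Caf1-55, a histone chaperone subunit, in libraries labelled Elp3 (0.349, -0.23) and to CG10336 in those labelled nej (0.0967, -0.46). Cdc45, the partner of the MCM ring, stood at log2 fold changes of 0.032 in dGcn5-depleted, -0.060 in Elp3-labelled and -0.045 in nej-labelled over control libraries.

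Genes upstream and downstream of S phase were set beside them. A list of 18 cell-cycle genes was drawn up around the G1 to S transition, with regulators such as E2f1 and CycE. Of these, edgeR called 0 in each comparison. Their median log2 fold changes were -0.098 in dGcn5-depleted, -0.15 in Elp3-labelled and 0.074 in nej-labelled over control libraries. Their smallest unadjusted p by edgeR was 0.134 for mip120, a subunit of the dREAM repressor complex, in dGcn5-depleted cells. It was 0.184 for stg in libraries labelled Elp3 and 0.083 for CycD in those labelled nej. The phosphatase stg acts at entry into mitosis, although it is in this list. Of 33 mitosis genes tested, edgeR also called 0 in each comparison, with median log2 fold changes of -0.22 in dGcn5-depleted, -0.23 in Elp3-labelled and -0.011 in nej-labelled over control libraries. The smallest unadjusted p of these by edgeR was 0.0359 for feo, which bundles spindle microtubules, in dGcn5-depleted cells (log2 fold change -0.58), 0.0331 for the checkpoint gene Bub3 in libraries labelled Elp3 (-0.66) and 0.0585 for the cyclin CycB3 in those labelled nej (0.49).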

How the data were processed

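RNA-seq libraries were made from Kc cells after dsRNA treatment for 5 days, in 4 groups of 3, and samples were grouped by their titles. The study's methods state that reads were trimmed, cleared of ribosomal RNA, aligned with STAR to BDGP6.32 and counted over exons with featureCounts. What the authors deposited are raw counts, as whole numbers for every feature, without a filter or scaling. The strand setting and the use of molecular identifiers are not given in the sources used here, and exon lengths come from the table.

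Groups were compared with edgeR 4.0.16 (quasi-likelihood test, R 4.3.3) using TMM scaling, edgeR's filter (minimum 10 counts), and Benjamini-Hochberg adjustment over all features tested, called under 0.05. Each comparison used the 6 libraries of its groups, and an F test used all 12. CPM and RPKM were computed here from the counts, and log2 levels used a prior count of 2. The 95% confidence intervals came from the F statistic. DESeq2 1.42.0, its size factors, other filters, a 12-library fit, a replicate block, removal of the length trend, left-out libraries and edgeR's newer method were alternatives. Scripts were tested on simulated data, where recovery of changes was required only at a spread below that of these libraries.

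Values in every library are given for the 3 genes with the largest and the 3 with the smallest fold change per comparison, the highest and lowest levels and 1 gene per role with the highest CPM, with Mcm5, dup, RfC3 and DNAlig1 shown for their spread or lack of overlap. From the other lists the gene with the smallest p was named. The members and lists were chosen with earlier results of these data known. The deviations of same-numbered libraries from their group means correlated at 0.14, 0.47 and 0.63 between nej-labelled and control libraries. The correlations of same-numbered libraries were -0.12, 0.20 and -0.01 for dGcn5 and -0.64, 0.72 and -0.10 for Elp3. Unlike-numbered libraries ranged from -0.69 (Elp3-labelled replicate 2) to 0.63 (Elp3-labelled replicate 1), both with control replicate 3. Nej-labelled replicate 1 correlated at 0.21 with control replicate 2, so these values do not show pairing. Orc3 and Cdc45 were matched through RefSeq synonyms.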

Additional observations from a re-analysis of the deposited data

How the results depend on the processing

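The count of replication genes called stayed at 0 for the libraries labelled Elp3, for those labelled nej and for the 4 groups under every alternative run. For dGcn5-depleted cells it was 0 except without replicate 3 in either group (9 genes, beside 4275 features) and with the length trend removed and replicate 3 of all groups left out (2 genes, beside 2884 features), an alternative added after the data were seen. The cause was not tested. Over all features, DESeq2 called 47 in dGcn5-depleted, 24 in Elp3-labelled and 38 in nej-labelled over control libraries and 86 over the 4 groups. For Elp3 labels the count was 0 with the replicate block and with the length correction and block, 161 with the length correction and replicate 3 of all groups left out, and 0 to 1 without single libraries (0 without Elp3-labelled replicate 3 or any 1 control replicate) or without replicate 3 in either group. For nej labels the count was 1 in the 12-library fit, 2 with the replicate block and 1 with the length correction. Over the 4 groups it was 3 without a filter, and 2 with the length correction, alone, with the replicate block or without replicate 3, and with edgeR's newer method.

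The replicate block changed no call of a replication gene. Without single libraries, the median log2 fold change of the genes ran from -0.13 to 0.0020 in dGcn5-depleted, from -0.11 to 0.015 in Elp3-labelled and from -0.19 to -0.0085 in nej-labelled over control libraries. Without replicate 3 in either group the nej median was -0.044, and also -0.044 with the length correction. Without replicate 3 in either group, 7 of the 32 genes changed sign in dGcn5-depleted, 8 in Elp3-labelled and 6 in nej-labelled over control libraries, and of those in dGcn5-depleted cells PCNA (0.43, adjusted p 0.0366 by edgeR) was called. Without control replicate 3 alone 9 genes changed sign in dGcn5-depleted, 8 in Elp3-labelled and 12 in nej-labelled over control libraries, with no call. Among the genes with the largest and smallest fold changes, the direction reversed, with no call, for RPA2 in dGcn5-depleted cells (0.093 without replicate 3 in either group, and -0.46 to 0.11 without single libraries, the highest without control replicate 3). In libraries labelled Elp3 it reversed for geminin (0.13 without replicate 3 in either group, -0.60 to 0.044 without single libraries), for RPA2 (0.035, and -0.55 to 0.024) and for Orc6 (-0.025 to 0.56 without single libraries, the lowest without Elp3-labelled replicate 1), where the highest values of geminin and RPA2 were those without control replicate 3. In those labelled nej it reversed for Psf2 (0.011 with the length correction and replicate 3 left out). The intervals are not adjusted for the number of features tested, so that their widths do not give the smallest change that could be called. At 3 libraries a group, Gcn5 at a log2 fold change of -1.78 in dGcn5-depleted cells was not called (adjusted p 0.421 by edgeR).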
